A study of Mus musculus with 4 samples.

Results

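The genes described here are 8 members of the IL-22 and IL-10 cytokine family and their receptors, taken by name out of the 41388 genes listed in the count tables. They are the cytokine genes Il22, Iltifb, Il10 and Il24 and the receptor genes Il22ra1, Il22ra2, Il10ra and Il10rb. RNA-seq was done on Mnk3, a mouse cell line with features of group 3 innate lymphoid cells (ILC3), from RNA depleted of ribosomal RNA. In the stimulated group, 2 libraries came from Mnk3 cells that were given IL-1b plus IL-23, each cytokine at a concentration of 10 ng/ml, and harvested after about 16 h, and in the control group 2 libraries came from Mnk3 cells that received neither cytokine. No genotype change is named for either group, and the sources used here give neither the mouse strain nor the passage of the cells. The data therefore describe 1 cultured line, with no tissue and no other cell types added. Library 1 of each group is the one titled rep1, and library 2 has a title without a number. Since no label names separate cultures, the p-values measure no more than the spread between these libraries, and that spread may be technical.

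IL-22 is secreted by ILC3 and some T cells, whereas its receptor sits mainly on epithelial and other non-haematopoietic cells. IL-22 therefore carries a signal from lymphocytes to barrier tissue. The cytokines of the family bind receptors made of paired chains of the class II type. IL-22 uses IL22RA1 with IL10RB, and IL-10 uses IL10RA with the same IL10RB, while IL22RA2 is a soluble protein that binds IL-22 and blocks it. The receptors signal through JAK1 and TYK2 to STAT3, whose target genes include the feedback inhibitor Socs3. The series concerns the regulation in cis of the Il22 gene in type 3 immune cells, and the comparison asks what IL-1b and IL-23 do to the expression of these genes.

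Summed counts ranged from 23047723 to 29078765 per library over 4 libraries. Levels are CPM, that is TMM-scaled counts relative to library size (mean ± SD, n = 2 per group). A change is a log2 fold change, stimulated over control, with an SE obtained as the absolute change over the root of the edgeR F value. This SE is approximate and can be too small for genes with few counts. All 9 ILC3 marker genes used were detected in every library, with a summed level of 1719 to 1918 CPM in stimulated and 3801 to 3918 CPM in control libraries. Of these 9, 1 was higher, 5 were lower and 3 did not pass, against 17.5% higher and 18.3% lower over all tested genes. In stimulated libraries the summed markers of T cells reached 12.0 to 16.0 CPM, of B cells 1.66 to 1.93, of myeloid cells 4.28 to 11.8 and of epithelium 0.306 to 0.396. In control libraries they reached 19.6 to 24.0 CPM for T cells, 3.12 to 3.79 for B cells, 2.75 to 4.20 for myeloid cells and 1.06 to 1.39 for epithelium. Among the T cell markers, Trac had 6 and 9 counts in stimulated 1 and 2, against 125 and 252 in control 1 and 2. Its log2 fold change was -4.33 ± 0.51 (edgeR adjusted p = 0.00151), and the other 3 tested T cell markers did not pass. The part of the markers of other cell types in the results was not tested.

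Stimulation with IL-1b and IL-23 raised the ligand genes Il22 and Iltifb by more than 8 on the log2 scale, and Il22 stood among the 20 protein-coding genes with the highest level per kilobase in each stimulated library. The other ligand genes and most receptor genes, 5 of the 8 members, had 12 or fewer counts in each library. Among the receptor genes, only Il10rb, the chain that IL-22 and IL-10 share, was expressed well enough to be tested, and its difference did not pass. Of the 3 members tested, 2 were higher, 0 were lower and 1 did not pass, at an edgeR adjusted p under 0.05. Over all 13838 genes tested, 35.8% were called in either direction, 17.5% higher and 18.3% lower. Iltifb entered the test through its stimulated libraries, so the count of tested members that were called is no measure of the family.

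**Figure D1:**
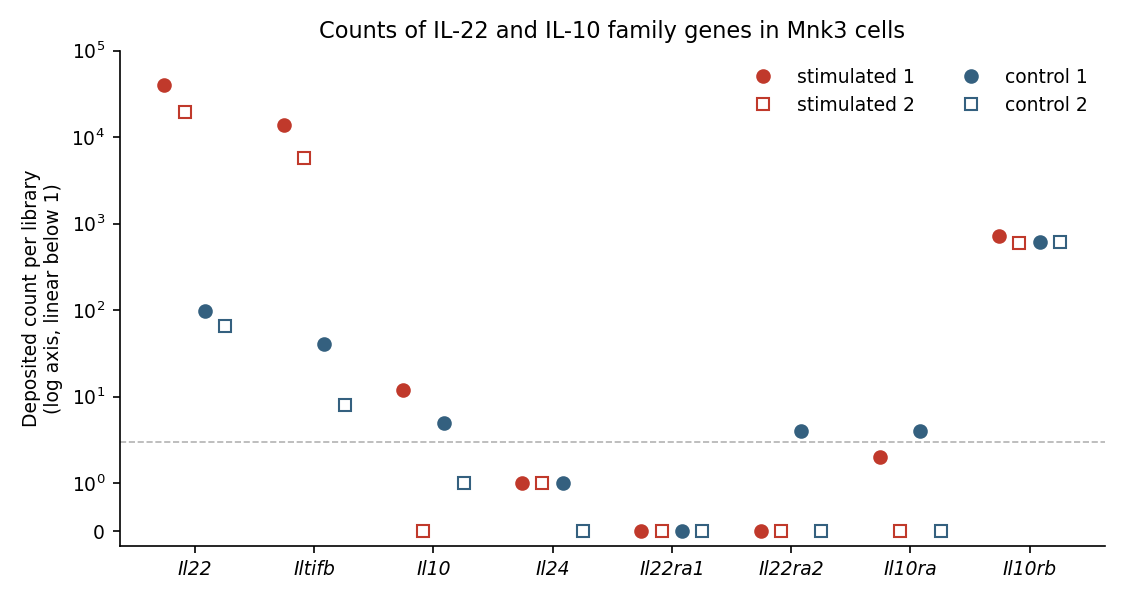
Deposited count of each of the 8 family genes in each library (log axis, linear below 1), with stimulated libraries in red left of control libraries in blue and a dashed line at 3 counts. Il22 and Iltifb have at least 5822 counts in both stimulated libraries, Il10rb has 596 to 714 in all 4 libraries, and the other 5 genes have 12 or fewer in each.

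Il22 and Iltifb are near-identical genes on chromosome 10. By the positions in the count tables, Il22 (ENSMUSG00000074695) lies at 118204942 to 118210047 on the plus strand and Iltifb (ENSMUSG00000090461) at 118289629 to 118295038 on the minus strand, 79.6 kb apart. Iltifb is known as a duplicate of Il22 that some inbred mouse strains carry and others lack. In GENCODE M21 on GRCm38, both coding sequences have 540 bases and 9 positions differ, an identity of 98.3%. Of 179 codons before the stop, 3 encode a different residue. The longest identical coding run is 215 bases. The transcripts, of 1110 and 1111 bases, differ at 29 of 1110 aligned bases. Counted from 1 at the first coding base, with the base of Il22 first and that of Iltifb last, the coding differences are G106A, A150G, C188T, T213C, C217T, G258A, T474C, G486A and T492C. Coding bases 98 to 217 hold 5 of them within 120 bases and are shown because these are the letters by which a read can be given to one gene or the other. Both stretches span an intron, at chr10:118205088-118205600 on the plus strand for Il22 and chr10:118294380-118294892 on the minus strand for Iltifb (GRCm38), and capitals mark the differing bases.
Il22: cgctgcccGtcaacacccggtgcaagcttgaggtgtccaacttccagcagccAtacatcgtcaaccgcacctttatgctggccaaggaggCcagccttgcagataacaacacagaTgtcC
Iltifb: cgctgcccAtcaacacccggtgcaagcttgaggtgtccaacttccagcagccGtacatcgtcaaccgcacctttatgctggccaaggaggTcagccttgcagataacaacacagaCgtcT
A read that covers none of the capitals cannot be placed by this stretch. Of all 50-base stretches of either transcript, 41.0% occur in the other one, and 20.4% of 100-base and 7.7% of 150-base stretches do. Neither the read length nor the handling of reads that match both genes is stated in the sources used here, so each gene's own level is uncertain and the sum of both is given beside them.

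The windows before the transcription starts are far less alike. The 250 bases before each RefSeq start (GRCm38.p6) are shown because the study concerns the regulation of Il22 in cis and both genes moved together. They lie at chr10:118204714-118204963 on the plus strand for Il22 and at chr10:118295039-118295288 on the minus strand for Iltifb. Capitals mark the longest block that the windows share, 54 bases with 2 of them differing.
Il22: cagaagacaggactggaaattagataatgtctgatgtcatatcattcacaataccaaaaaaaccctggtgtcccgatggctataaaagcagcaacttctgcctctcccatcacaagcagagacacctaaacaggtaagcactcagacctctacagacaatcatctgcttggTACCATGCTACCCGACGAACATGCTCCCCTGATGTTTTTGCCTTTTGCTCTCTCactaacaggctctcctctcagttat
Iltifb: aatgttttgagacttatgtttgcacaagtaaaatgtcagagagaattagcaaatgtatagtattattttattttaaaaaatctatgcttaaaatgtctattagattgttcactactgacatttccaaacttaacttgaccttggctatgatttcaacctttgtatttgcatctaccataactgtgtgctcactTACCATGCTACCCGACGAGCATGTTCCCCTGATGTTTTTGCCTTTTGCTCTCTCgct
The block begins 79 bases before the start of Il22 and 57 bases before that of Iltifb, with 25 and 3 bases between its end and the start. These offsets depend on the annotated starts: the count tables start Il22 farther upstream than RefSeq does, so that 22 bases of its window lie inside the listed gene, and 0 bases of the Iltifb window do. Both windows were searched on both strands for short motifs of factors known in ILC3 biology. The ROR core AGGTCA was not found in the Il22 window and occurred 1 time in that of Iltifb, with its first base at -115, and 14% of the 32851 RefSeq windows of the same length hold it. Neither window held the STAT motif TTCNNNGAA (7.02% of all windows), the AP-1 motif TGANTCA (6.75%), the NF-kB motif GGGANNTTC (3.23%), the AhR core GCGTG (28.2%) or the RUNX motif TGTGGT (14%). The letters TATAAA, searched for after the sequences had been seen, occurred 1 time in the Il22 window at -170 and not in that of Iltifb, against 12.4% of all windows. The other family gene with a RefSeq window, Il22ra1, held the AP-1 motif 1 time at -222 and the NF-kB motif 1 time at -155. These matches describe letters in the windows and not binding.

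Il22, the gene of the barrier-protective cytokine IL-22, had 40235 and 19574 counts in stimulated 1 and 2, against 97 and 65 counts in control 1 and 2. Scaled, these were 1593 and 857 CPM in stimulated 1 and 2 and 3.22 and 2.22 CPM in control 1 and 2. Both stimulated libraries stood far above both controls, with stimulated 1 the higher of the stimulated pair. The mean was 1225 ± 520 CPM in stimulated and 2.72 ± 0.706 CPM in control cells, a log2 fold change of 8.81 ± 0.46 (edgeR adjusted p = 0.000272). The change ranked 11 from the highest among 13838 tested genes. Among 21474 protein-coding genes ordered by level per kilobase, Il22 stood at rank 12 in stimulated 1 and 20 in stimulated 2, against rank 8719 in control 1 and 9245 in control 2. In these bulk libraries more cells that express a gene and more RNA per cell cannot be told apart.

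Iltifb, the copy of Il22, had 13987 and 5822 counts in stimulated 1 and 2, against 41 and 8 counts in control 1 and 2. The groups did not overlap, and again stimulated 1 was the higher of its pair, while control 2 held few counts. The mean was 404 ± 211 CPM in stimulated and 0.817 ± 0.769 CPM in control cells, a log2 fold change of 8.93 ± 0.96 (edgeR adjusted p = 0.0085). This was rank 10 from the highest. The call ended when any 1 of 3 libraries was left out: the edgeR adjusted p was 0.0528 without control 2 (change 8.21), 0.0639 without stimulated 1 (8.27) and 0.0516 without stimulated 2 (9.41). Without control 1 the change was 10.50 with an adjusted p of 0.0472.

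With the counts of both genes added into 1 row, the summed level was 1629 ± 732 CPM in stimulated and 3.54 ± 1.47 CPM in control cells. The log2 fold change of the sum was 8.84 ± 0.57, a fold of 459.6 (edgeR adjusted p = 0.000748 over 13837 rows). The sum made up 0.203% of all counts in stimulated 1 and 0.110% in stimulated 2. The sum does not change with how counted reads were divided between the copies, but it would change if reads that match both were left out or counted for each, which is not stated in the sources used here.

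With 2 libraries per group, it could not be decided whether the division between the copies differed between the groups. Iltifb held 25.8% of the summed counts in stimulated 1 (95% Wilson interval 25.4 to 26.2%) and 22.9% in stimulated 2 (22.4 to 23.4%), against 29.7% in control 1 (22.7 to 37.8%) and 11.0% in control 2 (5.66 to 20.2%). The stimulated values lay between the controls, whose intervals are wide because they rest on 138 and 73 counts. The mean share was 24.4 ± 2.03% in stimulated and 20.3 ± 13.3% in control cells, a difference of 4.03 percentage points (two-sided exact permutation test over libraries, p = 1, where the smallest p it allows is 0.333). The difference was 13.4 points without control 1 and -5.35 points without control 2. Intervals and floors here cover counting error only.

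**Figure D2:**
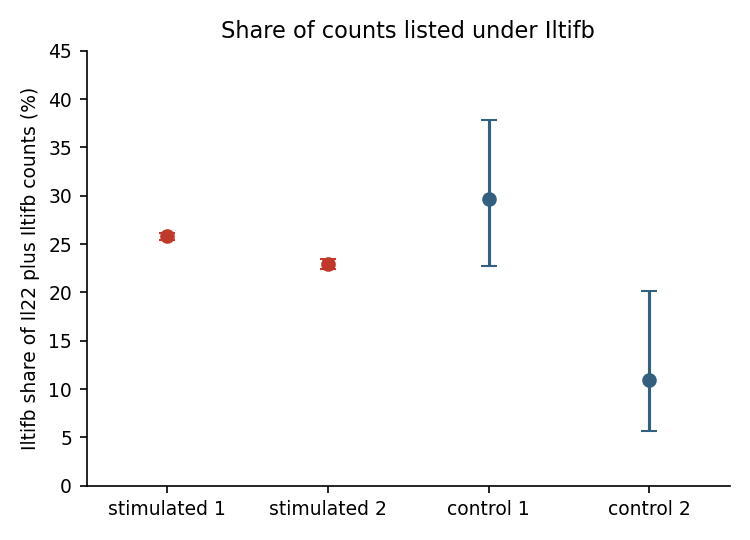
Share of the summed Il22 and Iltifb counts that is listed under Iltifb (%) in each stimulated (red) and control (blue) library, with bars for 95% Wilson intervals. The stimulated libraries, at 25.8 and 22.9%, sit between control 1 at 29.7% and control 2 at 11.0%.

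Il10 and Il24, the other ligand genes of the set, stayed near 0. Il10, which encodes an anti-inflammatory cytokine of lymphocytes and macrophages (chromosome 1, 131019845 to 131024974), had 12 and 0 counts in stimulated 1 and 2, against 5 and 1 counts in control 1 and 2. The groups overlapped, since all counts of the stimulated group came from stimulated 1. The ratio of the group sums was 2.47 with a 95% counting interval of 0.858 to 8.02, so a difference was not detectable at this depth. Il24, a cytokine gene of epithelium and lymphocytes (chromosome 1, 130882074 to 130887454), had 1 count in stimulated 1, in stimulated 2 and in control 1 and 0 counts in control 2. Both groups were at or under the floor of 3 counts, and no fold is given.

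The receptor genes of the set other than Il10rb were barely detected. Il22ra1, the signalling chain for IL-22 (chromosome 4, 135728172 to 135752140), had 0 counts in all 4 libraries. A count of 0 allows up to 3 counts, a level of 0.119 and 0.131 CPM in stimulated 1 and 2 and 0.0995 and 0.102 CPM in control 1 and 2. Il22ra2, the soluble IL-22 binding protein (chromosome 10, 19621998 to 19634681), had 0 counts in both stimulated libraries, against 4 in control 1 and 0 in control 2. Il10ra, the chain specific to IL-10 (chromosome 9, 45253837 to 45269149), had 2 and 0 counts in stimulated 1 and 2, against 4 and 0 in control 1 and 2. Its ratio of group sums was 0.618 with an interval of 0.0559 to 4.31. For both genes the groups overlapped at 0. In an edgeR fit with no low-count filter over 25548 genes, the adjusted p was 0.427 for Il10, 0.768 for Il24, 0.345 for Il22ra2 and 0.816 for Il10ra.

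Il10rb, the receptor chain used for both IL-22 and IL-10 (chromosome 16, 91406164 to 91425834), had 714 and 596 counts in stimulated 1 and 2, against 611 and 620 counts in control 1 and 2. Scaled for library size, these were 28.3 and 26.1 CPM in stimulated 1 and 2 and 20.3 and 21.2 CPM in control 1 and 2. After scaling, both stimulated libraries lay above both controls, a pattern found in 34.4% of all tested genes, and 36.3% had both below. The mean was 27.2 ± 1.54 CPM in stimulated and 20.7 ± 0.640 CPM in control cells, a log2 fold change of 0.39 ± 0.15 that did not pass (edgeR adjusted p = 0.0801). It ranked 3847 from the highest of 13838. Of its 3808 exon bases, 569 are shared with the annotated gene Gm21970 on the same strand, which had 0 counts in every library.

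Compared per kilobase of listed length, the order of the 3 tested members differed between the groups. In stimulated 1 and 2 the levels were 1435 and 772 CPM per kb for Il22, 483 and 222 for Iltifb and 7.42 and 6.85 for Il10rb. In control 1 and 2 they were 2.90 and 2.0 CPM per kb for Il22, 1.19 and 0.238 for Iltifb and 5.32 and 5.56 for Il10rb. Il10rb thus had the highest level of the 3 in both control libraries and the lowest in both stimulated ones, and neighbours in this order did not overlap within a group. Among the remaining 5 members the highest level in any library was 0.363 CPM per kb, for Il10 in stimulated 1.

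The other class II receptor genes show which receptors the line does express. Of 8 such genes, 6 were tested: 1 was higher, 2 were lower and 3 did not pass, with a median change of 0.30. Over all tested genes, 17.5% were higher and 18.3% lower, with a median of -0.016. Il20ra, counted as lower, entered the test through its control libraries, with 9 and 12 counts in stimulated 1 and 2. Ifngr1, the ligand-binding chain for interferon gamma, fell to 136 ± 9.07 CPM in stimulated cells, against 390 ± 48.1 CPM in controls (-1.52 ± 0.16, edgeR adjusted p = 0.000878). Il20ra, a chain that binds IL-20 family cytokines including IL-24 together with IL20RB, fell to 0.441 ± 0.119 CPM in stimulated cells, against 1.43 ± 0.423 CPM in controls (-1.69 ± 0.43, edgeR adjusted p = 0.0228). That call ended without control 1 (adjusted p 0.127), without stimulated 1 (0.0967) and in DESeq2 (0.0576). Ifnar2, a chain of the type I interferon receptor, rose by 0.59 ± 0.15 (edgeR adjusted p = 0.0206), with 0.0619 and 0.0509 without control 1 and 2 and 0.139 without stimulated 1. Il20rb had 0.65 ± 0.63, Ifngr2 0.58 ± 0.24 and Ifnar1 0.01 ± 0.13, and none passed. Without single libraries Il20rb had 0.01 (stimulated 1 left out) to 1.72 (control 1 left out) and did not pass. Ifngr2 passed without stimulated 2 (0.92, edgeR adjusted p 0.00751) and with no low-count filter (0.0023). Ifnlr1 had 0 and 5 counts in stimulated 1 and 2, against 1 and 4 in control 1 and 2, and F3 had 0 in all libraries.

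Per kilobase, Il10rb lay below Ifngr1, Ifnar1, Ifngr2 and Ifnar2 and above the remaining class II receptor genes, Ifnlr1 among them, in each library. Ifngr1 had 45.4 and 49.9 CPM per kb in stimulated 1 and 2 and 125 and 149 in control 1 and 2. Ifnar1, Ifngr2 and Ifnar2 ranged together over 20.1 to 34.2 in stimulated and 14.98 to 21.2 in control libraries, with Ifngr2 the highest of these 3 in both stimulated libraries and Ifnar1 in both control libraries. Of the paired chains of the IL-22 receptor, only IL10RB was thus represented among the transcripts, since Il22ra1 was at 0.

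**Figure D3:**
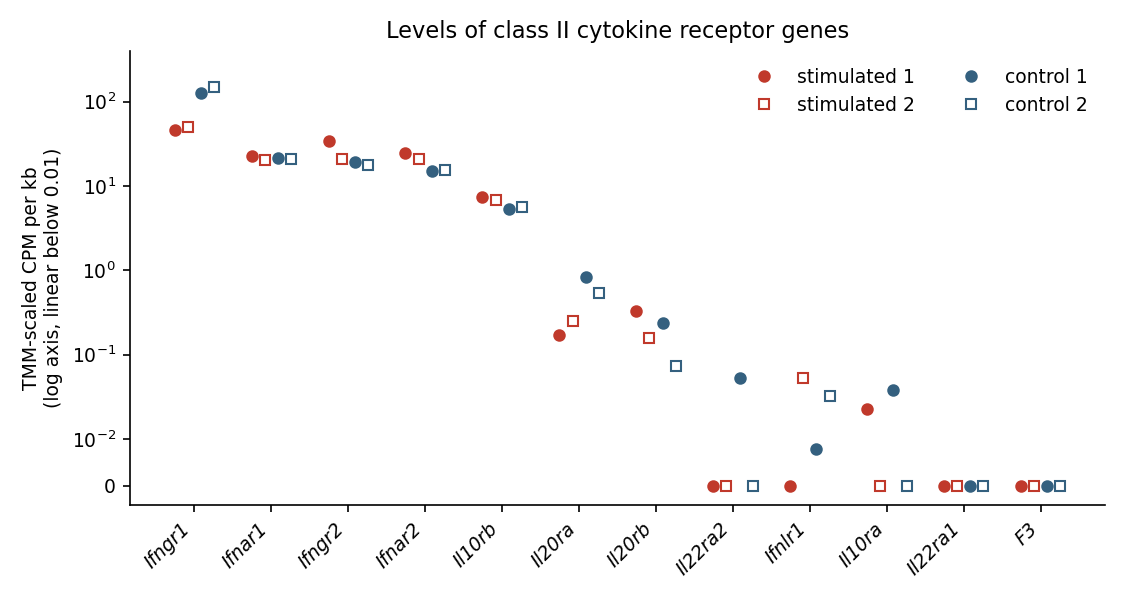
TMM-scaled CPM per kilobase (log axis, linear below 0.01) of 12 class II receptor genes in each library, stimulated in red left of control in blue. Il10rb lies at 5.32 to 7.42 in all 4 libraries, below the 4 genes to its left and above Il20ra, and Il22ra1 lies at 0.

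Of 4 further ligand genes of the family, 0 were tested. Il19 had 3 and 2 counts in stimulated 1 and 2 and 0 in both controls. Each count was at or under the floor of 3, so no fold is given, and in the edgeR fit without the low-count filter it did not pass (adjusted p 0.141). Il20, Ifnl2 and Ifnl3 were at 0 in all libraries.

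Among the signalling genes shared by the family, Stat3 and the SOCS genes rose by more than 1 on the log2 scale and those of the receptor kinases moved by less than 1. Of 5 genes for JAK, STAT and SOCS proteins, 3 were higher, 1 was lower and 1 did not pass, with a median of 1.76, against 17.5% higher, 18.3% lower and a median of -0.016 over all tested genes. Socs1 and Socs3, the feedback inhibitors of JAK signalling, rose to 247 ± 48.2 and 211 ± 35.4 CPM in stimulated cells, against 23.1 ± 1.57 and 36.2 ± 1.58 CPM in controls. Their log2 changes were 3.42 ± 0.19 and 2.54 ± 0.17 (edgeR adjusted p = 0.000183 and 0.000267). Stat3, the transcription factor used by IL-22, IL-10 and IL-23 alike, rose by 1.76 ± 0.17 (edgeR adjusted p = 0.000748). Tyk2, a receptor-associated kinase, fell by 0.58 on the log2 scale (SE 0.14, edgeR adjusted p = 0.02), with 0.0706 without control 2 and 0.118 without stimulated 1. Jak1, its partner kinase, had -0.12 ± 0.14 and did not pass. How far these changes came directly from the added IL-1b and IL-23, or by way of IL-22 or IL-10, was not tested.

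Genes that IL-10 is known to induce in macrophages were mostly higher. Of 7, 6 were higher, 0 were lower and 1 did not pass, with a median of 1.04, against 17.5% higher, 18.3% lower and a median of -0.016 over all tested genes. Socs3 is counted here too, and Il1rn entered the test only through its stimulated libraries. Bcl3, an IkB-type regulator of NF-kB, rose to 108 ± 8.07 CPM in stimulated cells, against 12.6 ± 3.10 CPM in controls (3.10 ± 0.21, edgeR adjusted p = 0.000271). Il1rn, the gene of a natural IL-1 antagonist, had 224 and 58 counts in stimulated 1 and 2 and 1 count in each control, or a ratio of 174 (counting interval 47.8 to 1445). Its call ended without control 1 (edgeR adjusted p 0.0594) or control 2 (0.0704). The corepressor gene Sbno2 rose by 0.84 ± 0.19, the transcription factor gene Nfil3 by 1.04 ± 0.22 and the IL-4 receptor gene Il4ra by 0.53 ± 0.15 (edgeR adjusted p = 0.0157, 0.0106 and 0.0309). These 3 calls ended without stimulated 1, at 0.0684 for Sbno2, 0.0556 for Nfil3 and 0.191 for Il4ra, and that of Il4ra also without control 1 (0.0827) or control 2 (0.0809). The repressor gene Etv3 had -0.32 ± 0.15 and did not pass. Il10 itself had 12 and 0 counts and Il10ra 2 and 0 counts in stimulated 1 and 2. Of the myeloid markers, Lyz2 and C1qa were at 0 and Adgre1, a macrophage surface gene, had 44 and 187 counts in stimulated 1 and 2, against 2 and 0 in control 1 and 2. The other 3 myeloid markers had -1.20 ± 0.77 (Itgam), -0.21 ± 0.54 (Csf1r) and 0.22 ± 0.29 (Cd68) and did not pass. The part of such cells in these changes was not tested.

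Genes that IL-22 is known to induce in epithelium were largely absent. Of 10, 2 were tested, 1 higher and 1 lower, against 17.5% higher and 18.3% lower over all tested genes. Lcn2 entered the test only through its stimulated libraries. Lcn2, an iron-sequestering antimicrobial protein, had 640 and 489 counts in stimulated 1 and 2, against 1 and 0 counts in control 1 and 2, which is a ratio of 1394 (counting interval 249.8 to 55126). Muc1, a membrane mucin, fell to 13.1 ± 1.57 CPM in stimulated cells, against 49.1 ± 17.3 CPM in controls (-1.91 ± 0.27, edgeR adjusted p = 0.00292). The antimicrobial lectin gene Reg3g had 14 and 6 counts in stimulated 1 and 2 and 0 and 1 in control 1 and 2, or a ratio of 24.7 (interval 3.95 to 1024). Reg3b had 6 and 0 counts in stimulated 1 and 2 and 0 in both controls, so the groups overlapped at 0 and no fold is given. The alarmin genes S100a8 and S100a9 were at 0 in all libraries, and Fut2, Saa1, Saa3 and Lrg1 had 4 or fewer counts in each. Of the 5 epithelial markers, Epcam, Cdh1, Krt18 and Cldn3 had 2 or fewer counts in each library. Krt8, a keratin gene, had 7 and 6 counts in stimulated 1 and 2, against 41 and 29 counts in control 1 and 2 (-2.10 ± 0.44, edgeR adjusted p = 0.0108), and the part of such cells in the fall of Muc1 was not tested.

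**Figure D4:**
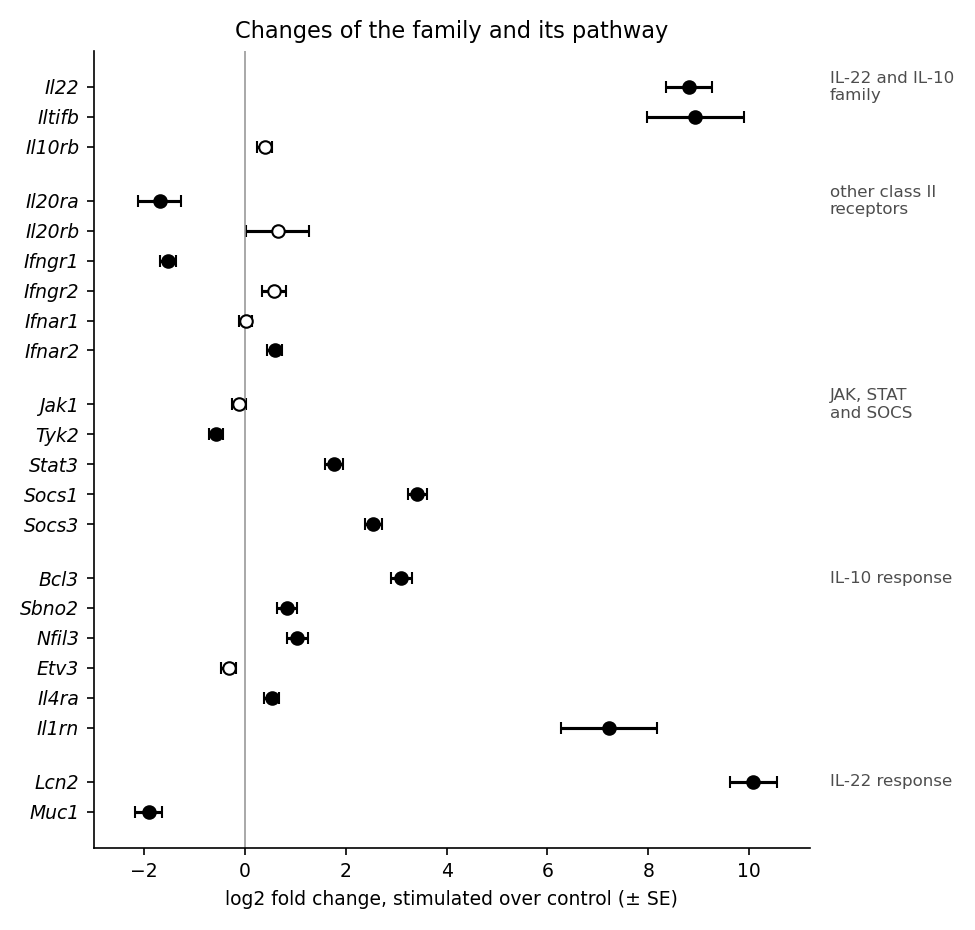
Log2 fold change of stimulated over control (± SE) for the tested genes of the family and of 4 related lists, where filled points passed an edgeR adjusted p of 0.05 and open points did not. Il22 and Iltifb lie near 9 with Il10rb at 0.39, and the values of Il1rn and Lcn2 rest on 2 and 1 control counts.

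Several family genes sit in clusters with their relatives, so the genes within 200 kb of each member were listed. Of 73 annotated neighbours that are not members, 29 were tested: 6 were higher, 9 were lower and 14 did not pass. Over all tested genes, 17.5% were higher and 18.3% lower. Among the neighbours called, Ifng entered the test through its stimulated libraries, and Scn2b and Il20ra through their controls. Beside Iltifb, at 146 kb, stands Ifng, the interferon gamma gene, with 2042 and 1551 counts in stimulated 1 and 2, against 6 and 4 counts in control 1 and 2, a log2 change of 8.75 ± 0.26 (edgeR adjusted p = 0.000103). Mdm1, a gene of a centriole protein 35.9 kb from Il22, rose by 0.72 ± 0.18 (edgeR adjusted p = 0.0233). It no longer passed without control 1 (0.0934), without stimulated 2 (0.076) or when scaled by total count (0.0513). Among the annotated genes of this stretch, changes of the size seen for Il22 were thus found in 3 cytokine genes and not in Mdm1. Within 200 kb of Il22, 8 genes were listed and 2 annotated, and within 200 kb of Iltifb, 9 and 3. Listed genes without a symbol were left out of this comparison.

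At the Il10 and Il24 cluster on chromosome 1, where Il19 and Il20 also lie, the cytokine genes stayed near 0. Within 200 kb of Il10, 4 genes were tested: 1 was higher, 1 was lower and 2 did not pass. Within 200 kb of Il24, 3 were tested: 1 was higher and 2 did not pass. Mapkapk2 is the higher gene in both counts. Over all tested genes, 17.5% were higher and 18.3% lower. Mapkapk2, a stress kinase gene 28.7 kb from Il10, had 752 and 521 CPM in stimulated 1 and 2, against 384 and 365 CPM in control 1 and 2 (0.76 ± 0.20, edgeR adjusted p = 0.0255). Its call ended without stimulated 1 (0.132) and without control 2 (0.0623). Rassf5, a Ras effector gene at 151 kb, was lower, at -0.85 ± 0.13 (edgeR adjusted p = 0.00373), and Dyrk3, Eif2d, Pfkfb2 and Yod1 did not pass.

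At Il22ra2 on chromosome 10 the neighbours are the receptor genes Ifngr1, at 11.8 kb, and Il20ra, at 77.9 kb, and both were lower. Near Il10rb on chromosome 16, where 4 class II receptor genes lie together, Ifnar2 at 0.575 kb was higher, while Ifnar1 and Ifngr2 did not pass. Farther out, Gart, a purine synthesis gene, rose by 1.15 ± 0.16, Tmem50b by 0.81 ± 0.21 and Dnajc28 changed by -1.35 ± 0.30 (edgeR adjusted p = 0.00246, 0.0261 and 0.0133). The call of Tmem50b ended without control 1 (0.0984) or stimulated 1 (0.129) and that of Dnajc28 without stimulated 2 (0.0531).

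Around Il22ra1, which had 0 counts, Cnr2, a cannabinoid receptor gene, changed by -4.42 ± 0.18 and Fuca1, a lysosomal fucosidase gene, by -0.86 ± 0.15 (edgeR adjusted p = 0.000134 and 0.00572), and the other 4 tested neighbours did not pass. Around Il10ra, all 3 tested neighbours were lower. Scn2b, a sodium channel subunit gene, changed by -2.90 ± 0.37, the adhesion gene Jaml by -1.89 ± 0.20 and Mpzl3 by -0.67 ± 0.14 (edgeR adjusted p = 0.00181, 0.000928 and 0.0118). The call of Mpzl3 ended without stimulated 2 (0.0792).

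**Figure D5:**
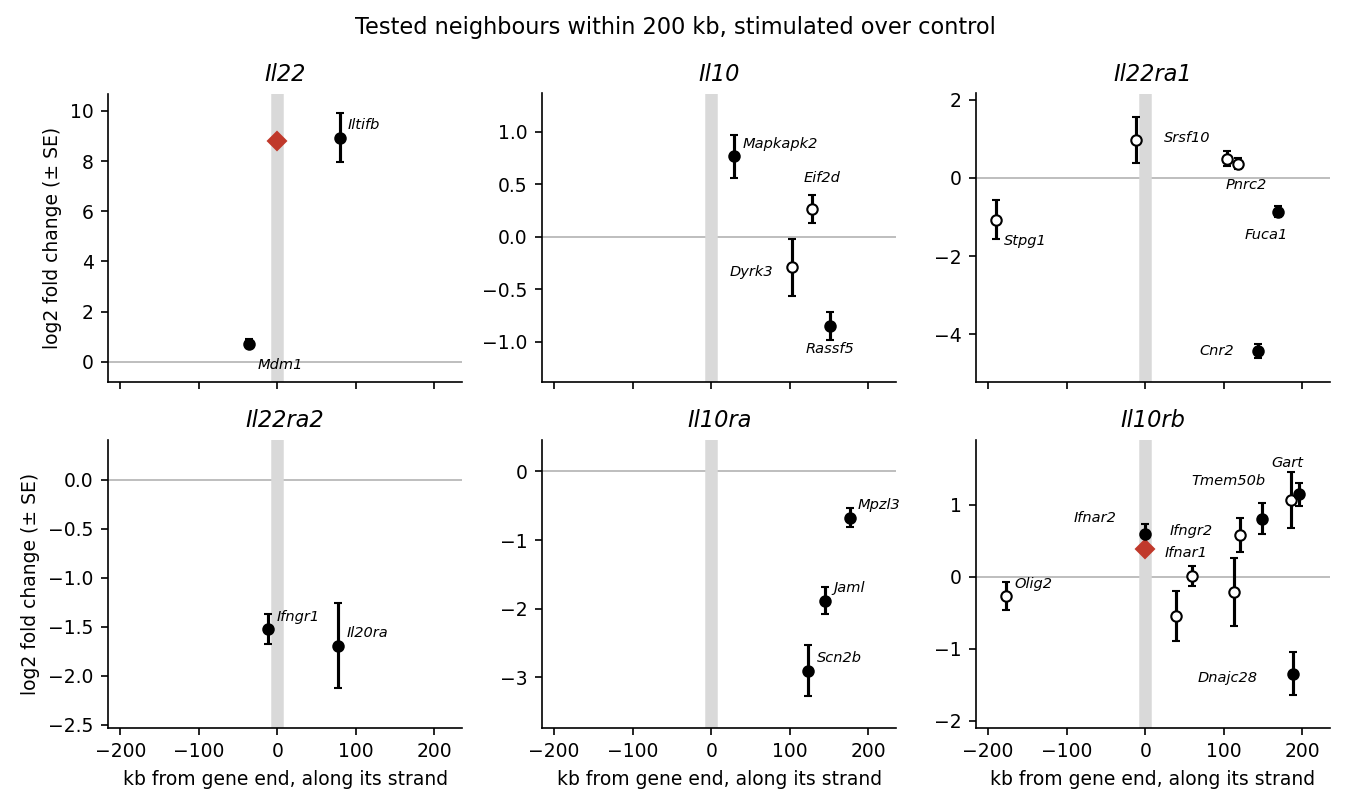
Log2 fold change (± SE) of tested genes within 200 kb of 6 family genes against their distance in kb from the nearer end of the family gene (grey band), negative on its 5′ side; filled points passed an edgeR adjusted p of 0.05, open points did not, and red diamonds mark the family gene where tested. Predicted and clone names are left off, and listed genes without a symbol are not drawn. Among the genes drawn beside Il22, only Iltifb reaches a value near 9.

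The genes with the profile nearest to each tested member were ranked by the root mean square distance between log2(CPM + 0.5) values over the 4 libraries, each gene less its own mean, among 9938 genes with a mean of at least 5 CPM. For Il22 they were Iltifb (distance 0.320), Il17f (0.476), Fscn1 (0.770), Ifng (0.895) and Iigp1 (0.971). For Iltifb the same genes followed Il22 in the same order, from Il17f at 0.536 to Iigp1 at 0.980. Il17f, a cytokine gene of type 3 lymphocytes, had 2383 ± 929 CPM in stimulated and 11.4 ± 0.909 CPM in control cells. The genes nearest to Il10rb were Sfxn1, Zbtb17, Zdhhc5, Puf60 and Tspan31, at distances of 0.00381 to 0.0185. Like Il10rb, these 5 had small positive differences, of 0.37 to 0.41, that did not pass in edgeR. The distance rests on 4 values per gene, and genes that differ between the groups by a like amount are near each other by construction. Il22 and Iltifb can also share reads, so their nearness to each other is no separate result.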

How the data were processed

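RNA-seq of Mnk3 cells gave 2 stimulated and 2 control libraries. Per the submitters' processing notes, the tools were STAR, Subread and featureCounts. Versions, roles, genome build, use of strand and treatment of reads with several matches were not given in the sources used here. The authors deposited a raw whole-number count for each gene, per the file headers. Beside it the authors deposited CPM and RPKM, per the file headers, which did not enter the tests.

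Identifiers were matched to GENCODE M21 for symbols (40340 of 41388), and 76.1% of the matched genes had the same start and end. Positions of genes are those of the count tables. Counts were tested with edgeR 4.0.16 (quasi-likelihood, robust, filterByExpr, TMM, treatment as the only term; R 4.3.3, limma 3.58.1), adjusted by Benjamini-Hochberg over 13838 genes with a threshold of 0.05. The biological coefficient of variation common to all genes was 18.4%. Genes under the filter were described by counts, ratios of scaled sums with exact 95% counting intervals, or a floor of 3 counts, and shares by Wilson intervals. Median changes over a list are given beside that of all tested genes. Alternatives were other scalings, filters and tools (DESeq2 1.42.0, limma-voom), a replicate block and each library left out. The fits were also tested on simulated data.

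Named genes are the 8 members, the genes of 5 lists (other ligands, other class II receptors, JAK, STAT and SOCS genes, IL-10 and IL-22 response genes), annotated neighbours within 200 kb and, for each tested member, the 5 genes of nearest profile. A few of these genes are not reported here. With marker lists of 5 cell types, 10 lists stood beside the members. The members, lists and tests were chosen with earlier results of these data known.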

Additional observations from a re-analysis of the deposited data

How the results depend on the processing

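Il22 passed in 14 of 14 alternatives (log2 change 8.30 to 9.22, highest adjusted p 0.00135) and the sum of Il22 and Iltifb in 13 of 13 (8.29 to 9.35). Iltifb passed in 10 of 14. It did not pass with no low-count filter (8.94, edgeR adjusted p 0.0751), and with 1 library left out its change was 8.21 to 10.50. Il10rb had 0.30 to 0.47 in 13 alternatives and passed in 1, the fit with the replicate block (0.39, edgeR adjusted p 0.00459). The replicate block, by the kind of title, called 3986 genes higher and 4000 lower. The titles number only 1 library per group and state no pairing, and deviations of like-titled libraries from their group means correlated at a Pearson r of 0.49 across genes. With 1 library left out, 1593 to 2001 genes were higher and 1665 to 2035 lower, where fewer samples enter the test. Of 661 fits of the other 51 named genes, 609 kept their direction and side of the threshold, 24 lost the call, 22 gained it and 6 changed sign, for genes that did not pass. Ifnar1 had -0.0805 with total-count and -0.0400 with upper quartile scaling. With 1 library left out, Ifnar1 had -0.0710 to 0.118, Pfkfb2 -0.242 to 0.0355 and Gm7860 -0.57 to 0.27; the cause was not tested. Total-count scaling moved the median of all genes to -0.108. With 2 libraries per group and 12 or fewer counts per library, differences in Il10, Il24, Il22ra2 and Il10ra were not detectable at this depth, and a count of 0 for Il22ra1 does not show that it is absent.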
